A study of Mus musculus with 6 samples.

Results

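The genes described here are 10 genes that mark white adipocytes, *Adipoq*, *Lep*, *Plin1*, *Plin4*, *Cidec*, *Cfd*, *Retn*, *Fabp4*, *Lpl* and *Lipe*, measured in the colon RNA of mice that were prone to obesity (OP) or resistant to it (OR). They were chosen by their gene symbols, and all 10 were found among the 17778 symbols of the expression table. All 10 passed the filter on low values that left 13520 genes for testing. The animals were male wild-type C57BL/6J mice, a common inbred laboratory strain, and all 6 had been fed a high-fat diet for 16 weeks, to 21 weeks of age. OP mice came from the upper quartile of weight gain on this diet and OR mice from the lower quartile. Colon RNA was sequenced from 3 OP mice and 3 OR mice, and mice on a normal diet were not analysed here. The groups were thus formed by weight gain and not by a treatment or a genotype, and each group was 3 mice picked from a quartile. Expression was given as FPKM, fragments scaled to transcript length and to the mapped total of each library, so that levels can be set side by side between genes.

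White adipocytes store triglyceride in a single large lipid droplet, release fatty acids when energy is needed and secrete hormones called adipokines. The 10 genes cover these tasks. *Adipoq* (adiponectin), *Lep* (leptin), *Cfd* (adipsin, also named complement factor D) and *Retn* (resistin) encode secreted proteins, *Plin1*, *Plin4* and *Cidec* encode proteins of the lipid droplet, and *Fabp4*, *Lpl* and *Lipe* encode proteins that carry, take up or release fatty acids. The colon wall itself holds few adipocytes, whereas mesenteric fat is attached to its outer side. How much attached fat was trimmed from each piece of colon is not given in the sources used here, so a difference in the number of adipocytes in the piece and a difference in RNA per adipocyte cannot be told apart in these data.

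The sequence before the start site is shown for the 3 genes on which the results turn, *Adipoq*, to which the other genes were related, and *Lep* and *Cfd*, whose ratio to *Adipoq* separated the groups in 5 mice. The sequences are from RefSeq on the mouse build GRCm38.p6, which differs from the build used for the expression values, and run 5′ to 3′ over the 250 bases that end just before the start site. Capitals mark the letters of a CCAAT box (CCAAT), a C/EBP motif (TTGCNNAA) and a short TATA box (TATAA, sense strand only), with the first 2 searched on both strands. The *Adipoq* stretch lies on the plus strand at chr16:23146286-23146535, the *Lep* stretch on the plus strand at chr6:29059971-29060220 and the *Cfd* stretch on the plus strand at chr10:79890603-79890852.
Adipoq: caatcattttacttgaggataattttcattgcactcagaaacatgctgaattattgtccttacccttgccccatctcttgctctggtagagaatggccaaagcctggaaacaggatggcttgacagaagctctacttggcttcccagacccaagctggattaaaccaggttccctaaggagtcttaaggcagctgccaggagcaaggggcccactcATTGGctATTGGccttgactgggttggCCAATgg
Lep: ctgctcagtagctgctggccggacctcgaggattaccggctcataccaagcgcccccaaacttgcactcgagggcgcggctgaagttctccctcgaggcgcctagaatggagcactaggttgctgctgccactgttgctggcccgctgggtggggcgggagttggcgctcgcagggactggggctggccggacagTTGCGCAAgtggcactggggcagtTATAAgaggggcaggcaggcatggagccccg
Cfd: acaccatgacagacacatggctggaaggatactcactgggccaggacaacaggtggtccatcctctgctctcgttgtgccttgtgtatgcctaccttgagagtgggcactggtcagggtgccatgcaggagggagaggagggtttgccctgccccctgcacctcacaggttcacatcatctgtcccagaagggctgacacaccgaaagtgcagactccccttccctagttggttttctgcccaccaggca
Counted from the start site, the *Adipoq* stretch held the CCAAT letters 3 times, at bases -34 to -30 and -27 to -23 on the minus strand and at -7 to -3 on the plus strand. The *Lep* stretch held a C/EBP motif at -55 to -48, which reads the same on both strands, and TATAA at -31 to -27. None of these letters were in the *Cfd* stretch. RefSeq windows of 300 bases, 250 before and 50 from the start site on, were found for 8 of the 10 genes (10 windows). TTGCNNAA was in 3 of these 10 windows and in 10.8% of all 32851 windows, and CCAAT was in 2 of 10 and in 37.4% of all windows. TATAA was in 2 of 10 windows and in 17.5% of all windows. The letters AGGTCA of a nuclear receptor half-site, searched on both strands, were in 0 of the 10 windows and in 16.3% of all windows. A match of letters is a description and does not show binding.

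One OP mouse stood apart in these genes and is named before the results that rest on it. OP mouse 2 had the lowest level of all 10 adipocyte genes, and 5 of them, *Adipoq*, *Lep*, *Plin1*, *Cfd* and *Retn*, were listed at 0 in this mouse and above 0 in the other 5 mice. Over the whole table, only 4 genes were at 0 in OP mouse 2 and at 1 FPKM or more in each of the other 5 mice, and *Adipoq* and *Cfd* were among these 4. In each of the other mice 0 or 1 gene stood alone at 0 by this measure. None of 10 housekeeping genes was at 0 in any mouse, and the lowest of them in OP mouse 2 was at 7.84 FPKM. The FPKM values summed to between 585350 and 600028 per mouse, with 16287 to 16619 genes above 0. Read depth cannot be recovered from FPKM, so no limit can be set on what a value of 0 allows.

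The adipocyte genes were led by *Fabp4*, with a mean of 92.1 FPKM over the 6 mice, and it was the highest of the 10 genes in every mouse. *Cfd* followed with 36.1 FPKM and *Cidec* with 19.8 FPKM. *Lpl* (11.1 FPKM), *Lipe* (8.77 FPKM), *Adipoq* (7.56 FPKM), *Retn* (7.55 FPKM) and *Plin4* (7.07 FPKM) had ranges over the mice that overlapped each other, so their order was within the spread. *Plin1*, with 1.21 FPKM, and *Lep*, with 0.743 FPKM, were the lowest. Their order depended on the mouse, since *Lep* lay above *Plin1* in OP mice 1 and 3 and below it in each OR mouse.

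**Figure D1:**
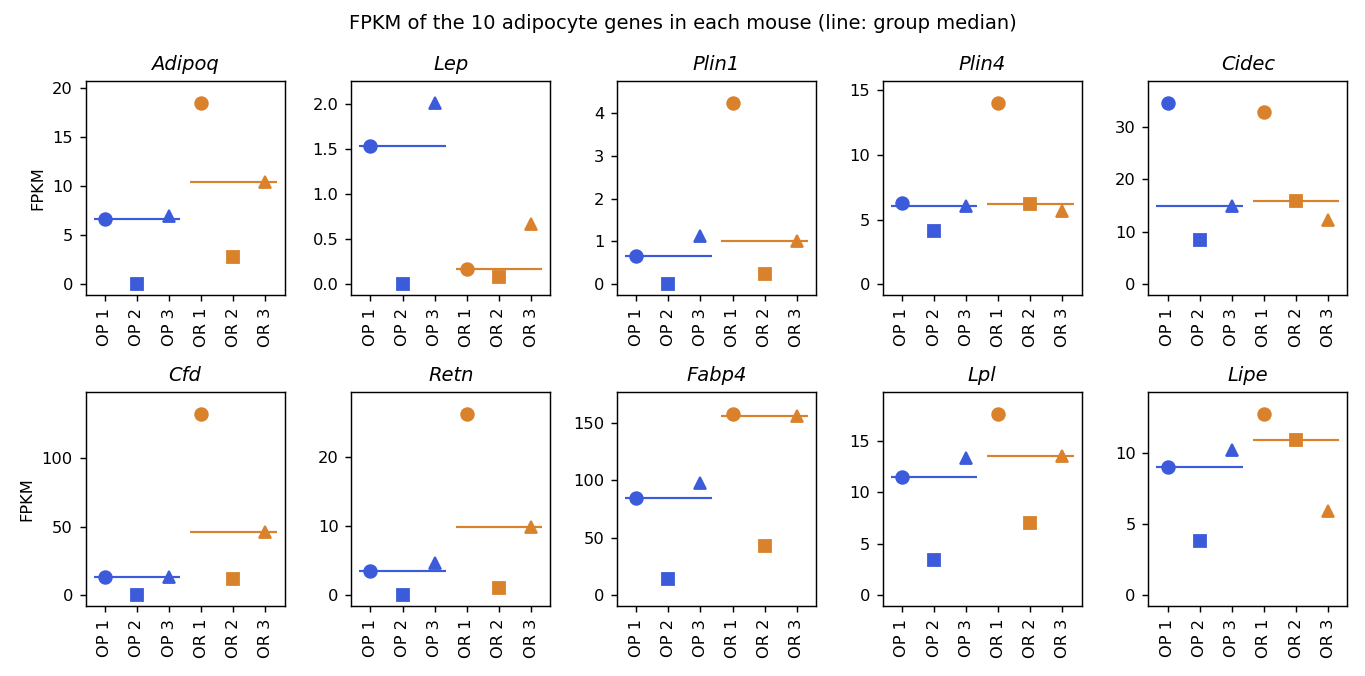
FPKM (linear axis from 0, different for each gene) of the 10 adipocyte genes in OP mice 1 to 3 (blue) and OR mice 1 to 3 (orange), with 1 point per mouse and a line at the group median. OP mouse 2 (blue square) is the lowest mouse for all 10 genes, OR mouse 1 (orange circle) is the highest for 8 of 10, and *Lep* is the gene with OP mice 1 and 3 above the OR mice.

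Whether the adipocyte genes differed between OP and OR mice was asked with limma-trend on log2(FPKM + 1), fitted over all 13520 genes with Benjamini-Hochberg q-values. No adipocyte gene was called (a fold change outside 0.83 to 1.2 together with a q-value below 0.2). Over all genes tested the same rule called 3 genes, or 0.0222%, as lower in OP mice and 0% as higher. The estimate was below 0 (lower in OP mice) for 9 of the 10 adipocyte genes, against 70.1% of all genes tested, and above 0 for 1, *Lep*, against 29.9%. The median log2 fold change of the 10 genes was -0.55, beside -0.10 over all genes tested. At an unadjusted limma-trend p below 0.05 there was 1 adipocyte gene, *Cfd*, lower in OP mice, where 3.53% of all genes passed as lower and 0.503% as higher. In 0 of the 10 genes did the groups fail to overlap, beside 6.81% of all genes with every OP mouse below every OR mouse and 1.63% with every OP mouse above.

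The spread between mice of one group was wide in these genes. Their residual SD on the log2 scale ran from 0.499 to 1.96 with a median of 0.844, whereas the median over all genes tested was 0.253. For *Cfd* only 0.214% of genes had a larger residual SD, and for *Plin4*, the steadiest of the 10, 11.9% had. The standard errors of the log2 fold changes accordingly lay between 0.34 and 1.19. Averaged over the 10 genes, the deviation from each gene's mean on the log2 scale was 0.20, -1.66 and 0.23 in OP mice 1, 2 and 3 and 1.26, -0.45 and 0.42 in OR mice 1, 2 and 3. The summed FPKM of the 10 genes showed the same range, from 33.6 in OP mouse 2 to 417 in OR mouse 1.

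The genes of the secreted proteins were described first. *Adipoq* encodes adiponectin, an insulin-sensitising hormone made almost only by adipocytes. It had 6.61, 0 and 6.99 FPKM in OP mice 1, 2 and 3 and 18.48, 2.81 and 10.45 FPKM in OR mice 1, 2 and 3. OR mice 1 and 3 lay above all OP mice, but OR mouse 2 lay below OP mice 1 and 3, so that the groups overlapped. The log2 fold change (OP over OR) was -1.27 ± 0.90 (SE, n = 3 per group), with a 95% interval from -3.38 to 0.85 and a q-value of 0.945 by limma-trend with Benjamini-Hochberg adjustment. Without OP mouse 2 the estimate was -0.28 ± 0.63.

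*Cfd* encodes adipsin, a serine protease that starts the alternative complement pathway. Its levels were 13.26, 0 and 12.86 FPKM in OP mice 1, 2 and 3 and 132.45, 11.93 and 45.86 FPKM in OR mice 1, 2 and 3. The OR mice spanned 11.1-fold among themselves, and OR mouse 2 was just below OP mice 1 and 3. The log2 fold change was -2.89 ± 1.19 (SE, n = 3 per group), the widest gap of the 10 genes, with a 95% interval from -5.67 to -0.11, an unadjusted p of 0.0433 and a q-value of 0.945 by limma-trend with Benjamini-Hochberg adjustment. In a two-sided exact permutation test of the mean FPKM the p-value was 0.3, where 0.1 is the smallest that 3 mice against 3 allow. Without OP mouse 2 the *Cfd* estimate was -1.62 ± 0.85, with an unadjusted limma-trend p of 0.0992.

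*Retn* encodes resistin, an adipokine of mouse fat. It had 3.50, 0 and 4.70 FPKM in OP mice 1, 2 and 3 and 26.27, 0.99 and 9.82 FPKM in OR mice 1, 2 and 3. OR mouse 1 had 26.5 times the level of OR mouse 2, which was the widest range among the OR mice for any of the 10 genes. The log2 fold change was -1.51 ± 1.01 (SE, n = 3 per group) with a limma-trend q-value of 0.945 after Benjamini-Hochberg adjustment. Without OR mouse 1 it was -0.65, and without OP mouse 2 it was -0.73.

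*Lep* encodes leptin, the hormone by which fat signals its energy stores. It was at 1.53, 0 and 2.01 FPKM in OP mice 1, 2 and 3 and at 0.17, 0.08 and 0.67 FPKM in OR mice 1, 2 and 3. OP mice 1 and 3 were above every OR mouse, whereas OP mouse 2, which was listed at 0, lay below them all. The log2 fold change over the 6 mice was 0.62 ± 0.41 (SE, n = 3 per group), with a 95% interval from -0.35 to 1.59 and a limma-trend q-value of 0.945 with Benjamini-Hochberg adjustment. Without OP mouse 2 it was 1.11 ± 0.25, with an unadjusted limma-trend p of 0.00342 and a q-value of 0.770 over the 13405 genes then tested. *Lep* was then the only one of the 10 genes whose groups did not overlap, beside 5.81% of all genes with both OP mice above the OR mice. Its FPKM values were low, at most 2.01, and a fold change on the log2(FPKM + 1) scale understates the change of such a gene. OP mouse 2 was singled out by its values in these same genes, and in it *Lep* lay below the OR mice. The p-value and the lack of overlap without OP mouse 2 are thus a description and not a test.

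The genes of the lipid droplet proteins had lower RNA levels in OP mouse 2 as well. *Plin1* encodes perilipin 1, the coat protein of the adipocyte droplet that gates the access of lipases. It had 0.67, 0 and 1.13 FPKM in OP mice 1, 2 and 3 and 4.23, 0.24 and 1.00 FPKM in OR mice 1, 2 and 3. OR mouse 1 stood above the other 5 mice and the rest overlapped. The log2 fold change was -0.62 ± 0.53 (SE, n = 3 per group). It was -0.045 without OR mouse 1 and -0.32 without OP mouse 2.

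*Plin4*, which encodes another perilipin of the droplet surface, had 6.28, 4.15 and 6.08 FPKM in OP mice 1, 2 and 3 and 14.03, 6.21 and 5.65 FPKM in OR mice 1, 2 and 3. The means were 5.50 ± 1.18 FPKM in OP mice and 8.63 ± 4.68 FPKM in OR mice (SD, n = 3), with OR mouse 1 far above the rest and the other 2 OR mice close to OP mice 1 and 3. Its log2 fold change was -0.48 ± 0.34 (SE, n = 3 per group), and -0.11 without OR mouse 1. *Cidec* encodes a protein that fuses lipid droplets into larger ones. It had 34.58, 8.43 and 14.89 FPKM in OP mice 1, 2 and 3 and 32.88, 15.82 and 12.36 FPKM in OR mice 1, 2 and 3. With means of 19.3 ± 13.6 FPKM in OP mice and 20.4 ± 11.0 FPKM in OR mice (SD, n = 3), *Cidec* was the gene whose groups lay closest. Its log2 fold change was -0.17 ± 0.52 (SE, n = 3 per group), with an exact permutation p of 0.9, and the sign turned without OP mouse 2 (0.27) and without OR mouse 1 (0.22).

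The genes of fatty acid handling were above 0 in all 6 mice. *Fabp4* encodes the fatty acid carrier of the adipocyte cytoplasm, which capillary endothelium and macrophages also express. It had 84.74, 13.79 and 97.82 FPKM in OP mice 1, 2 and 3 and 157.97, 42.41 and 155.73 FPKM in OR mice 1, 2 and 3. The level in OP mouse 2 was 12.8% of the mean of the other 5 mice, and OR mouse 2 was also below OP mice 1 and 3. The log2 fold change was -1.04 ± 0.80 (SE, n = 3 per group), and -0.16 ± 0.55 without OP mouse 2.

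*Lpl* encodes lipoprotein lipase, which frees fatty acids from circulating triglyceride and is also made by muscle and macrophages. It had 11.54, 3.41 and 13.33 FPKM in OP mice 1, 2 and 3 and 17.67, 7.02 and 13.56 FPKM in OR mice 1, 2 and 3, so that OR mice 1 and 3 lay above all OP mice, OR mouse 3 only just, and OR mouse 2 lay below OP mice 1 and 3. *Lipe* encodes hormone-sensitive lipase, which breaks down stored diglyceride. It had 9.02, 3.81 and 10.22 FPKM in OP mice 1, 2 and 3 and 12.75, 10.92 and 5.92 FPKM in OR mice 1, 2 and 3. In *Lipe* the lowest OR mouse was OR mouse 3, not OR mouse 2 as in the 7 genes *Adipoq*, *Lep*, *Plin1*, *Cfd*, *Retn*, *Fabp4* and *Lpl*. The log2 fold changes were -0.49 ± 0.50 for *Lpl* and -0.36 ± 0.39 for *Lipe* (SE, n = 3 per group), and 0.048 and 0.024 without OP mouse 2.

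Leaving out OP mouse 2 therefore changed the picture of the 10 genes together. In the remaining 5 mice 6 of the 10 estimates were lower in OP mice and 4 were higher, where 68.7% of all genes were lower and 31.3% higher, and the median log2 fold change was -0.22, beside -0.12 over all genes. At an unadjusted limma-trend p below 0.05 there were 0 of the 10 genes lower, beside 4.59% of all genes, and 1 higher (*Lep*), beside 1.28%. None of the 10 was called, beside 0.00746% of all genes called lower and 0% higher. In 0 of the 10 were both OP mice below all OR mice, beside 15.4% of all genes. The q-values of the 10 genes by limma-trend with Benjamini-Hochberg adjustment were then between 0.770 and 0.985. These p-values and q-values come from a fit of 5 mice, left after a choice made on the same genes, and are a description. Other single mice also moved the result. The median log2 fold change of the 10 genes was -0.19 without OR mouse 1 and -0.96 without OR mouse 2.

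**Figure D2:**
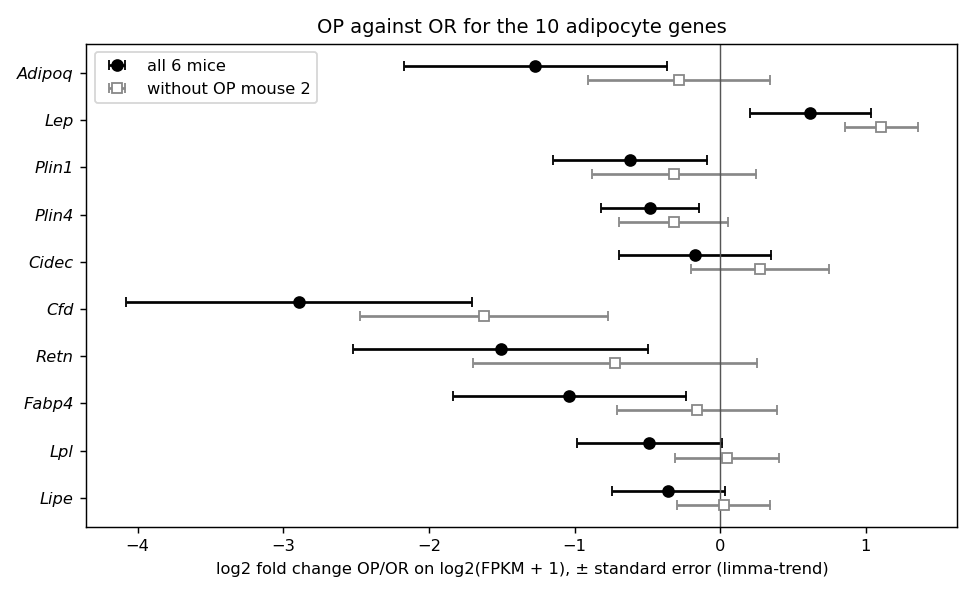
Log2 fold change OP over OR on the log2(FPKM + 1) scale with its standard error from limma-trend, for each of the 10 adipocyte genes in all 6 mice (filled circles) and without OP mouse 2 (open squares). With 6 mice 9 estimates are below 0 and *Cfd* is the lowest at -2.89. Without OP mouse 2 most estimates lie near 0, and *Lep* (1.11) and *Cfd* (-1.62) lie farthest from it.

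To see how the genes varied among themselves, each was divided by *Adipoq* in the 5 mice in which *Adipoq* was above 0. These ratios are given as a description with no test, for 2 OP mice and 3 OR mice. *Fabp4* kept the steadiest ratio, with 12.8 and 14.0 in OP mice 1 and 3 and 8.55, 15.1 and 14.9 in OR mice 1, 2 and 3, a range of 1.77-fold. *Lpl* to *Adipoq* ranged 2.61-fold, *Plin1* 2.68-fold, *Retn* 4.03-fold, *Plin4* 4.09-fold, *Cidec* 4.76-fold and *Lipe* 6.86-fold, each with overlapping groups.

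The ratios of *Lep* and *Cfd* were the ones that separated the groups. *Lep* to *Adipoq* was 0.231 and 0.288 in OP mice 1 and 3 and 0.00920, 0.0285 and 0.0641 in OR mice 1, 2 and 3, so that the lower OP mouse was 3.61 times the highest OR mouse. *Cfd* to *Adipoq* was 2.01 and 1.84 in OP mice 1 and 3 and 7.17, 4.25 and 4.39 in OR mice 1, 2 and 3, and here both OP mice were below all OR mice. Over all genes that could be related to *Adipoq* in these 5 mice, 0.215% had both OP ratios above all OR ratios and 0.394% had both below. These shares are small in part by construction, since the ratio carries the wide range of *Adipoq* for any gene that does not vary with it.

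The same ratios were taken with other denominators, again without OP mouse 2. *Lep* was higher in OP mice 1 and 3 than in all OR mice relative to each of *Adipoq*, *Plin1*, *Cfd*, *Retn* and *Fabp4*. Relative to *Plin1*, for example, it was 2.28 and 1.78 in OP mice 1 and 3 and 0.0402, 0.333 and 0.670 in OR mice 1, 2 and 3. The FPKM of *Lep* alone already separated these mice, so the denominators are not independent repeats of the result. *Cfd* was lower in OP mice 1 and 3 relative to each of *Adipoq*, *Plin1*, *Retn* and *Fabp4*. Set against *Plin4*, *Cidec* or *Lipe*, *Cfd* had overlapping groups, so its separation depended on the gene it was related to. With *Cfd* as the denominator 6 of the 9 genes were higher in OP mice 1 and 3 than in all OR mice, so that this denominator did not single out *Lep*. OP mouse 2 gives no ratio to *Adipoq*, *Plin1*, *Cfd* or *Retn*, since these genes were listed at 0 in it, and relative to *Fabp4*, which was above 0 in this mouse, *Lep* at 0 lay below every OR mouse.

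**Figure D3:**
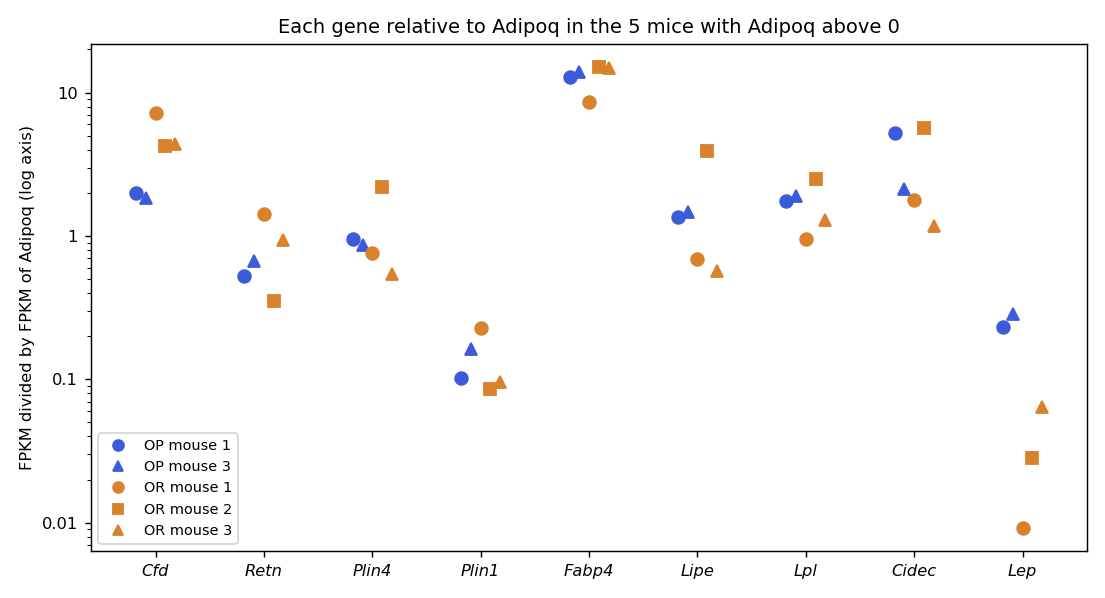
FPKM of 9 adipocyte genes divided by the FPKM of *Adipoq* (log axis) in the 5 mice with *Adipoq* above 0, with OP mice 1 and 3 in blue and OR mice 1 to 3 in orange. The blue points lie above all orange points for *Lep* and below them for *Cfd*, and the groups overlap for the other 7 genes.

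Families and partners of the 10 genes were then described from gene lists. In the perilipin family *Plin2*, which coats droplets in most cell types, had 140.66, 86.52 and 124.68 FPKM in OP mice 1, 2 and 3 and 83.26, 86.20 and 85.01 FPKM in OR mice 1, 2 and 3. Every OP mouse was above every OR mouse in *Plin2*, though OP mouse 2 only just, and the log2 fold change was 0.43 ± 0.19 (SE, n = 3 per group) with an unadjusted limma-trend p of 0.0507. *Plin3*, the other widely expressed perilipin, had overlapping groups, and *Plin5* did not pass the filter. *Plin2* was thus on the other side of 0 from *Plin1* (-0.62) and *Plin4* (-0.48). Among the fatty acid binding proteins, the 7 listed genes included *Fabp2*, the enterocyte form, which was the most abundant, at 665.12 to 2393.18 FPKM over the 6 mice. In this family 6 of 7 estimates were lower in OP mice and 0 had an unadjusted limma-trend p below 0.05. *Fabp6*, the ileal bile acid carrier, varied as widely as the adipocyte genes, with 7.0, 1.03 and 35.11 FPKM in OP mice 1, 2 and 3 and 74.19, 11.17 and 45.90 FPKM in OR mice 1, 2 and 3.

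The resistin family split by member. *Retnla*, a resistin-like gene of macrophages, fat and gut, had 5.75, 3.68 and 3.72 FPKM in OP mice 1, 2 and 3 and 14.08, 11.75 and 17.54 FPKM in OR mice 1, 2 and 3. Every OP mouse was below every OR mouse, and the log2 fold change was -1.53 ± 0.23 (SE, n = 3 per group), with an unadjusted p of 0.000225 and a q-value of 0.507 by limma-trend with Benjamini-Hochberg adjustment, so that it was not called. *Retnlb*, the goblet cell form, had 44.20, 446.81 and 3.93 FPKM in OP mice 1, 2 and 3 and 27.25, 172.08 and 62.41 FPKM in OR mice 1, 2 and 3, and was highest in OP mouse 2, where *Retn* was listed at 0. *Retnlg* was at or near 0 in all mice.

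Receptors of the adipokines were expressed in all 6 mice. *Adipor1*, an adiponectin receptor, lay between 63.66 and 94.98 FPKM with a log2 fold change of 0.02. *Lepr*, the leptin receptor, had 0.59, 1.02 and 1.64 FPKM in OP mice 1, 2 and 3 and 2.10, 3.24 and 3.09 FPKM in OR mice 1, 2 and 3, with a log2 fold change of -0.89 ± 0.24 (SE, n = 3 per group), an unadjusted p of 0.00753 and a q-value of 0.834 by limma-trend with Benjamini-Hochberg adjustment. *Cdh13*, which encodes T-cadherin, a surface binder of adiponectin, had a log2 fold change of -0.75 ± 0.19 (SE, n = 3 per group), an unadjusted p of 0.00496 and a q-value of 0.798 by limma-trend with Benjamini-Hochberg adjustment. In both genes every OP mouse was below every OR mouse. Of the 7 receptors and binders listed, these 2 were lower at an unadjusted p below 0.05 and 0 were called.

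Partners of *Lpl* and of lipolysis were read in the same way. *Gpihbp1* encodes the endothelial protein that carries lipoprotein lipase to the capillary lumen, and had 0.75, 1.26 and 2.81 FPKM in OP mice 1, 2 and 3 and 3.61, 2.94 and 3.69 FPKM in OR mice 1, 2 and 3. Its groups did not overlap, and the log2 fold change was -0.83 ± 0.30 (SE, n = 3 per group) with a limma-trend q-value of 0.945 after Benjamini-Hochberg adjustment. The other 6 *Lpl* partners tested had overlapping groups and unadjusted p-values of 0.196 or more. Of 13 genes of lipid droplets and lipolysis, 9 estimates were lower in OP mice and 3 had an unadjusted limma-trend p below 0.05, all lower. These were *Cav1* (-0.67 ± 0.15) and *Cavin1* (-0.65 ± 0.18), which encode proteins of caveolae in adipocytes, endothelium and muscle, and *Cidea* (-0.39 ± 0.15), which was below 1 FPKM in all mice. *Pnpla2*, the main triglyceride lipase, had a log2 fold change of -0.08 ± 0.19. Of 14 genes of triglyceride and fatty acid synthesis, 10 estimates were lower, and 7 of 14 without OP mouse 2. Both lists lay near the 70.1% of all genes with lower estimates. Of the synthesis genes 0 reached an unadjusted p below 0.05, and none was called by limma-trend.

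A second list of 25 genes enriched in white adipocytes, none of them among the 10, was read beside them. In the table were 24 of these genes, of which 21 passed the filter. Of these 21, 18 estimates were lower in OP mice and 3 higher, beside 70.1% of all genes tested lower, and 0 were called. Their median was -0.30 on the log2 scale, beside -0.10 over all genes tested. Without OP mouse 2, 15 of 21 were lower, close to the 68.7% of all genes, and the median was -0.33, beside -0.12 over all genes. The median of this list thus did not shrink without OP mouse 2, unlike that of the 10 genes. OP mouse 2 was the lowest mouse for 16 of the 24 genes. *Car3*, a carbonic anhydrase abundant in fat, had 16.53, 0.25 and 24.45 FPKM in OP mice 1, 2 and 3 and 55.46, 8.26 and 36.98 FPKM in OR mice 1, 2 and 3, which is the order of mice seen for *Adipoq*. *Adig* (adipogenin) had 0.95, 0.17 and 0.71 FPKM in OP mice 1, 2 and 3 and 4.63, 0.68 and 1.95 FPKM in OR mice 1, 2 and 3.

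Other genes of this list did not keep that order. *Lgals12*, a galectin gene of adipocytes, was highest in OP mouse 2, with 1.88, 11.37 and 4.75 FPKM in OP mice 1, 2 and 3 and 5.24, 4.85 and 7.56 FPKM in OR mice 1, 2 and 3. *Sncg* (gamma-synuclein) was highest in OP mouse 3, at 26.16 FPKM. *Pparg*, the nuclear receptor of adipocyte differentiation, which colon epithelium also expresses, lay between 50.70 and 68.96 FPKM in all mice and was not lowest in OP mouse 2. *Agpat2*, an enzyme of phospholipid and triglyceride synthesis, was the most abundant of the list, with 125.87 to 264.75 FPKM. *Cd36*, a fatty acid transporter of adipocytes, endothelium and macrophages, had 5.94, 1.90 and 7.45 FPKM in OP mice 1, 2 and 3 and 14.37, 10.22 and 12.54 FPKM in OR mice 1, 2 and 3. Its groups did not overlap, with a log2 fold change of -1.26 ± 0.39 (SE, n = 3 per group), an unadjusted p of 0.0139 and a q-value of 0.945 by limma-trend with Benjamini-Hochberg adjustment.

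**Figure D4:**
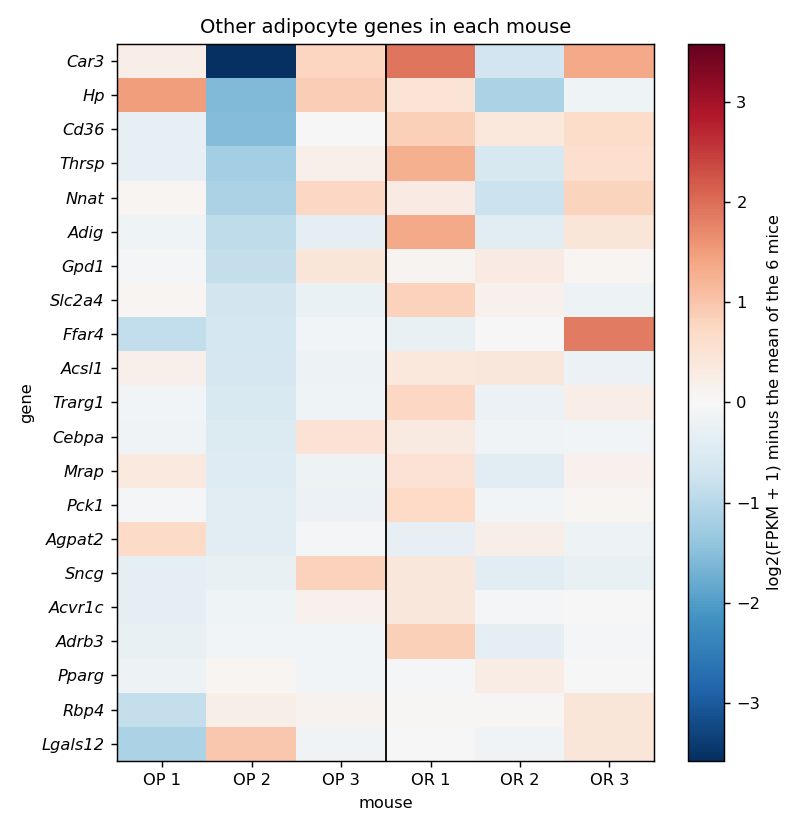
Heat map of the 21 tested genes of the second adipocyte list, with log2(FPKM + 1) minus the mean of the 6 mice for each gene (colour scale, blue below and red above the mean) in OP mice 1 to 3 and OR mice 1 to 3. *Car3*, *Thrsp* and *Adig* are highest in OR mouse 1 and lowest in OP mouse 2, *Cd36* is lower in every OP mouse than in every OR mouse, and *Pparg* varies little.

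Markers of other cell types that a piece of colon or its attached tissue can hold moved with the groups in part, and their part in the adipocyte values was not tested. Of 7 tested genes of the stroma of fat 6 were lower in OP mice, 3 of them at an unadjusted limma-trend p below 0.05, and the summed level was 76.3 to 93.3 FPKM in OP mice and 105 to 122 FPKM in OR mice. Of 12 blood endothelial genes all 12 were lower, 10 of them at an unadjusted p below 0.05, with sums of 24.8 to 41.8 FPKM in OP mice and 45.2 to 79.5 FPKM in OR mice. Of 12 macrophage genes 11 were lower, 9 of them at an unadjusted p below 0.05, with sums of 106 to 300 FPKM in OP mice and 215 to 279 FPKM in OR mice, lowest in OP mouse 2. The macrophage sums overlapped, with *Lyz2* at 48.71 to 166.37 FPKM carrying much of them, whereas in the mean log2 deviation over the 12 genes the highest OP mouse (0.159) was just below the lowest OR mouse (0.162). Of 10 fibroblast and matrix genes all 10 were lower, 8 of them at an unadjusted p below 0.05. Their summed level was 110 to 170 FPKM in OP mice and 254 to 422 FPKM in OR mice. None of the genes of these 4 lists was called by limma-trend. *Ebf2*, a stromal gene, was near 0 in every mouse and did not pass the filter. It was at 0.01 FPKM or less in the OP mice and at 0.05 to 0.12 FPKM in the OR mice.

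OP mouse 2 was the lowest mouse for 11 of 12 macrophage, 7 of 12 endothelial, 7 of 10 fibroblast, 1 of 10 smooth muscle and 1 of 12 epithelial genes. Of the 10 genes of the stroma of fat it was lowest, ties counted, in 3. The mean log2 deviation of the 7 tested stroma genes was -0.42, -0.50 and -0.06 in OP mice 1, 2 and 3. Smooth muscle genes summed to 1576 to 2422 FPKM in OP mice and 1934 to 3520 FPKM in OR mice, highest in OR mouse 1, with 10 of 10 estimates lower and 0 at an unadjusted limma-trend p below 0.05. Epithelial genes had 4 estimates lower and 8 higher, 0 at an unadjusted p below 0.05, and their median was 0.09 on the log2 scale. For mesothelium, the cell layer that covers the gut and its mesentery, 5 of 10 markers passed the filter and 4 were lower, with 1 at an unadjusted p below 0.05, and the summed level of the 10 markers was 75.2 to 138 FPKM in OP mice and 104 to 169 FPKM in OR mice. *Cldn15*, which intestinal epithelium also expresses, made up most of that sum. Without it the other 9 markers summed to 2.34 FPKM in OP mouse 2 and to between 6.38 and 9.67 FPKM in the other 5 mice. The mesothelial marker *Upk3b* had 1.53, 0.18 and 2.60 FPKM in OP mice 1, 2 and 3 and 3.28, 1.22 and 1.24 FPKM in OR mice 1, 2 and 3, lowest in OP mouse 2 and highest in OR mouse 1. Other markers of the list had another order, with *Msln* highest in OP mouse 3, at 2.87 FPKM, and *Gpm6a* in OR mouse 3, at 1.43 FPKM. OP mouse 2 was lowest, ties counted, for 6 of the 10 markers.

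**Figure D5:**
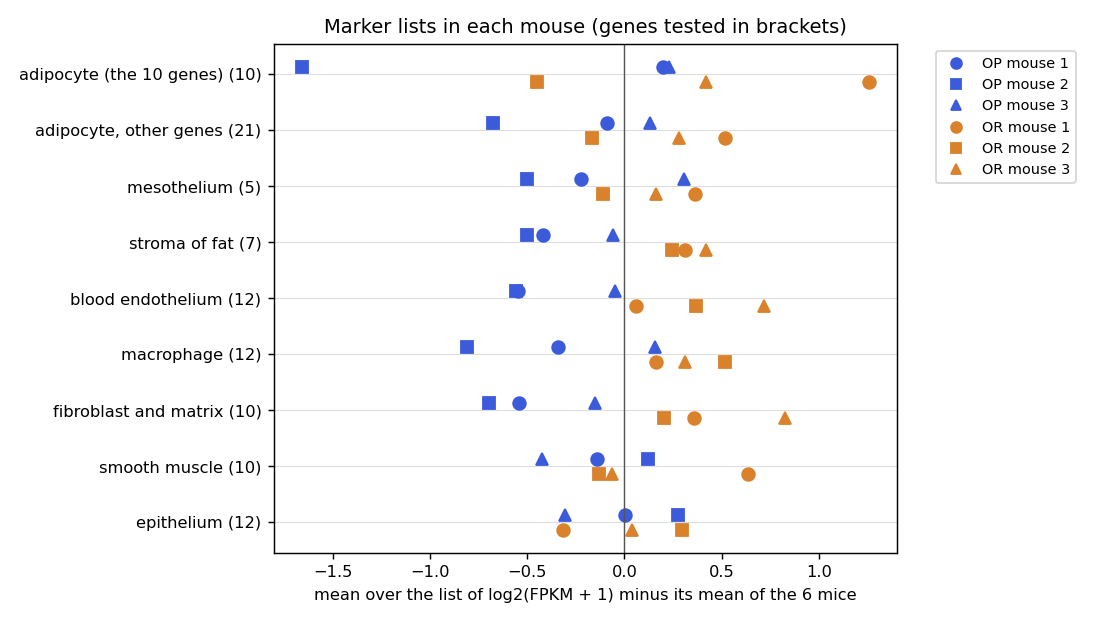
Mean over each marker list of log2(FPKM + 1) minus the gene's mean of the 6 mice, with 1 point per mouse (OP blue, OR orange) and the number of tested genes in brackets. The 10 adipocyte genes have the widest range, from -1.66 in OP mouse 2 to 1.26 in OR mouse 1 with overlapping groups, whereas the stroma, endothelium, fibroblast and, by a small margin, macrophage lists have all OP mice below all OR mice.

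Over the 6 mice, the genes outside the 10 whose log2(FPKM + 1) ran most like the mean of the 10 were *Myrfl* (Pearson r = 0.987), *Upk1b* (0.986), *Rapgef4* (0.978), *Car3* (0.978), *Tspan17* (0.974), *Nbl1* (0.972), *Cpt1b* (0.958), *Nr1h4* (0.956), *Slc17a2* (0.955) and *Bche* (0.952). They were the leading 10 of 3205 genes with a mean of at least 1 FPKM and a log2 range of at least 1, the 6 points share the low OP mouse 2, and the values are a description over 6 mice. Without OP mouse 2 the same genes had r between 0.853 and 0.966 over 5 mice. *Upk1b* is a marker of the mesothelial list and *Car3* of the second adipocyte list. *Upk1b* had 2.09, 0.68 and 1.81 FPKM in OP mice 1, 2 and 3 and 2.75, 1.43 and 1.89 FPKM in OR mice 1, 2 and 3. *Nr1h4*, which encodes the bile acid receptor FXR, was the most abundant of these 10 genes, with 112.03, 66.91 and 128.51 FPKM in OP mice 1, 2 and 3 and 134.82, 90.53 and 126.09 FPKM in OR mice 1, 2 and 3.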

How the data were processed

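Colon RNA of 3 OP and 3 OR mice was analysed, grouped by the sample labels. The authors enriched mRNA, sequenced strand-specific libraries on the DNBSEQ platform, filtered reads with SOAPnuke, aligned them with Bowtie2 and quantified genes with RSEM. The versions and the gene set differ between the methods and the labels, and the submitters' processing notes also name HISAT2 2.0.4 and GRCm39. The deposited values are FPKM to 2 decimals, 1 column per mouse, and all columns were used. Feeding time and age were taken from the methods.

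Depth is unknown: only 15 to 39 genes per pair of mice, over 15 pairs, were below 0.5 and above 0 in just that pair, too few to set relative depth. Genes with at least 0.5 FPKM in at least 3 mice were kept, and the difference between the groups was estimated on log2(FPKM + 1) with limma-trend in limma 3.58.1 under R 4.3.3, using Benjamini-Hochberg q-values over all genes tested. The script was tested on simulated data. Single genes were also compared by two-sided exact permutation tests (SciPy 1.17.1), with 20 arrangements. Alternatives were other scalings, pseudocounts, filters, sample weights, thresholds, a replicate block and each mouse left out.

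The 10 genes, the other lists and the naming rule were chosen with earlier results of these data known. Named are the 10 genes, for some of the lists genes of highest mean FPKM or lowest p, and the 10 genes of most similar course over the mice. *Adipor1* was named outside this rule. *Plin2*, *Plin3*, *Plin5*, *Pnpla2*, *Fabp6*, *Retnlb*, *Retnlg*, *Upk3b*, *Msln*, *Gpm6a*, *Ebf2*, *Lgals12*, *Sncg*, *Lyz2*, *Thrsp* and the genes of the additional observations were named after their values were seen. Antisense partners and near-identical copies were not separated beyond the authors' quantification.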

Additional observations from a re-analysis of the deposited data

How the results depend on the processing

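Of 132 recomputed estimates for single adipocyte genes 128 kept their sign, and 0 had a q-value below 0.2 by limma-trend with Benjamini-Hochberg adjustment, the lowest being 0.289. The sign turned for *Cidec* without OP mouse 2 (0.27) and without OR mouse 1 (0.22), and for *Lpl* (0.048) and *Lipe* (0.024) without OP mouse 2. With 1 mouse left out, the log2 fold change ran from -1.93 to -0.28 for *Adipoq*, 0.49 to 1.11 for *Lep*, -1.08 to -0.045 for *Plin1*, -0.70 to -0.11 for *Plin4*, -0.68 to 0.27 for *Cidec*, -3.76 to -1.62 for *Cfd*, -2.54 to -0.65 for *Retn*, -1.66 to -0.16 for *Fabp4*, -0.83 to 0.048 for *Lpl* and -0.65 to 0.024 for *Lipe*. The *Lep* range leaves out the fits without OP mouse 1, OP mouse 3 or OR mouse 3. *Lep* did not pass the filter there, and 9 of the 10 genes were tested. The median log2 fold change of the 10 genes lay between -0.98 (sample weights) and -0.19 (without OR mouse 1), and between -0.96 and -0.19 when 1 mouse was left out. With at least 1 FPKM required in all 6 mice only 5 of the 10 genes were tested, all 5 lower in OP mice. The count of the 10 genes whose groups did not overlap was 0 to 5 when 1 mouse was left out, with 1 without OP mouse 2 (*Lep*, higher, beside 5.81% of all genes), 5 without OR mouse 2 (all lower, beside 20.1% of all genes) and 1 without OR mouse 3 (*Lipe*, lower, beside 9.22%). With the main settings and an unadjusted p below 0.05, 1 of the 10 genes and 477 of all genes were lower in OP mice, and 68 of all genes were higher. The 3 genes called lower over the whole table became 5 with sample weights and 0 with median-of-ratios scaling, TPM, a pseudocount of 0.1, no filter, the filter of 1 FPKM in all mice, a q-value below 0.05 and the replicate block, and 0 to 1 when 1 mouse was left out. Equal replicate numbers belong to different mice, and the labels name no pairing. Over all genes tested, the deviations of mice with equal numbers correlated at -0.144, -0.157 and 0.0709. These values are taken over all genes, so they cannot show whether equal numbers shared an effect on the adipocyte genes. With the replicate block 0 of the 10 genes were called and *Cfd* had a q-value of 0.289 by limma-trend. Its unadjusted limma-trend p was then 6.94e-05, with 0.00135 for *Fabp4*, 0.00491 for *Retn* and 0.00555 for *Adipoq*, all lower in OP mice. The block sets OP mouse 2 beside OR mouse 2, each the lowest mouse of its group in these genes. No label gives this pairing, so the p-values with the block are a description and not a test. With sample weights the unadjusted limma-trend p was 0.00874 for *Cfd*, 0.0397 for *Fabp4*, 0.0491 for *Retn* and 0.0362 for *Adipoq*. Without OR mouse 2 it was 0.0173 for *Cfd* and 0.0165 for *Retn*. The share of all genes passing in these settings is not given. Depth is unknown, so the counting error of values near 0 cannot be given. The causes of these changes were not tested.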

Other observations

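Relative to *Adipoq* in the 5 mice without OP mouse 2, both OP mice were above all OR mice for 29 of the 13464 genes related to it and below them for 53. Ordered by the gap between the groups, *Ugt1a6b*, from neither adipocyte list, led the 29 and *Lep* was at place 3. *Hp*, which encodes haptoglobin, a haemoglobin-binding acute-phase protein made by liver and fat, was just before it, with 7.38, 0 and 4.42 FPKM in OP mice 1, 2 and 3 and 3.18, 0.35 and 1.65 FPKM in OR mice 1, 2 and 3. Like *Lep*, *Hp* was listed at 0 in OP mouse 2, and its FPKM was higher in OP mice 1 and 3 than in every OR mouse. Its log2 fold change was 0.53 ± 0.79 (SE) over the 6 mice, and 1.45 without OP mouse 2 with an unadjusted limma-trend p of 0.0202. That p-value is a description, since the mouse left out was the one with *Hp* at 0.

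*Cfd* was at place 2 of the 53 genes that were lower in OP mice relative to *Adipoq*. The next was *Cyp2e1*, a cytochrome P450 of liver and fat, with 1.24, 0 and 2.84 FPKM in OP mice 1, 2 and 3 and 62.99, 3.26 and 8.54 FPKM in OR mice 1, 2 and 3. *Adig* and *Trarg1* of the second adipocyte list were also among the 53. The widest gap of the 53 was that of *Ccl8*, and *Ube2c*, *Ccnb2*, *Scara5* and *Ccl11* were among them as well. These are from neither adipocyte list, so the 53 are not a set of adipocyte genes. Of 10 listed genes of brown adipocytes 5 passed the filter, 3 of them lower in OP mice and 1, *Cidea*, at an unadjusted limma-trend p below 0.05 with groups that did not overlap. The most abundant were *Cox7a1*, at 128.40 to 241.82 FPKM, and *Ppargc1a*, at 5.06 to 11.73 FPKM, both of which other tissues also express. *Elovl3* and *Dio2* were at 0.16 FPKM or below in all mice, and *Ucp1* was not analysed here. Of 9 genes of pancreatic acinar cells, which the mesentery borders on, 2 passed the filter, and their median was -0.12 on the log2 scale. Of 7 skeletal muscle genes that were found 3 passed, with a median of -0.28. None of these ratios or lists was tested as a set.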
